A study of Mus musculus with 84 samples.

Results

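The RNA-seq libraries of low-fat fed recipients were compared by the bacteria that had been transplanted: 3 libraries of the LFDHFB group against 3 of the LFDLFB group, which are 6 of the 12 RNA-seq libraries and 6 of the 84 samples of the series. All 6 came from male C57BL/6 mice that had been born germ-free, were given a low-fat diet (LFD), and were colonized at a few weeks of age by repeated oral gavage of donor stool. In LFDHFB the male donors had been fed a high-fat diet (HFD), and their bacteria are called high fat bacteria (HFB). In LFDLFB the male donors had been fed the LFD, and their bacteria are called low fat bacteria (LFB). So both groups shared the sex, the strain, the germ-free origin, the recipient diet and the gavage, and differed in the donor. The HFDHFB and HFDLFB groups (3 libraries each) received the same kinds of donor stool on the HFD and are given only for comparison. The comparison asks how colon expression differs with the donor's diet when the recipient itself eats the LFD. The donor material was a stool suspension and not purified bacteria. Libraries were made from cells scraped from the colon, which were not sorted, and the labels call them colon epithelium. Nothing says from which animals the replicates came or which donors they shared, so each p-value measures the spread between these libraries.

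The colon epithelium lives next to the densest bacterial community of the body. Its absorptive cells burn bacterial short-chain fatty acids in their mitochondria, its goblet cells secrete mucus, and its endocrine cells release peptide hormones. Along the colon the epithelium also differs by position: genes of bile acid and sugar uptake belong to the proximal gut, and the Hox genes, which encode the body's position factors, are used in an order, so that 3′ members are read proximally and 5′ members such as Hoxb13 and Hoxd13 distally. Linker histones of the H1 family bind DNA where it enters and leaves the nucleosome and compact chromatin. They include the replacement histone H1.0 of resting and differentiated cells, encoded by H1f0, and the clustered H1 genes, of which Hist1h1c (H1.2) is used in many non-dividing cells.

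By donor, no gene passed the test after adjustment. The strongest difference was a lower level of H1f0 in LFDHFB, and the second linker histone with appreciable expression, Hist1h1c, was also among the 12 lower genes with the smallest p. The genes with the smallest p were otherwise modest in size where all libraries took part, with 11 of the 12 lower and 6 of the 12 higher genes under 2-fold. The 7 over 2-fold were Bloodlinc, which was lower and rested on few reads, and Sis, Ugt8a, Cpb2, Cubn, Ppp3r2 and 5730507C01Rik, which were higher and were each read highest in LFDHFB replicate 3.

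The sequences before the start sites of these linker histone genes are given first, because the H1f0 and Hist1h1c transcripts carry the comparison's smallest p and its second linker histone. A RefSeq promoter entry was found by gene ID for each of the 6 linker histone genes tested. The 250 bases before the start site are shown 5′ to 3′ on the gene's strand, in the build GRCm38.p6, at chr15:79027962-79028211 (+) for H1f0 and at chr13:23738557-23738806 (+) for Hist1h1c. Capitals mark matches to AAACACA, the H1 box, to CCAAT and to TATAAA on either strand, none of which overlap here.
H1f0: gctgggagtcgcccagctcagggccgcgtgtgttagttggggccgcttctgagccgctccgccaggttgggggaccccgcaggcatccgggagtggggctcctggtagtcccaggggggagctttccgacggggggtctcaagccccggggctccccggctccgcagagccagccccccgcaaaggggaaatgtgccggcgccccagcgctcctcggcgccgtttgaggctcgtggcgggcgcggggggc
Hist1h1c: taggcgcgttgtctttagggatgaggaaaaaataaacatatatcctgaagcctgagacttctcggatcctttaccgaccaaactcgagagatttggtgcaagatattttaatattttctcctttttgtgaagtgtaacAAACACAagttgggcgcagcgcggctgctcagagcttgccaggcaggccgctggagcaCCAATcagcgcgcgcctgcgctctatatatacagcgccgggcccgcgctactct
Both genes are listed by the count table in mm9, H1f0 at chr15:78858642-78860930 and Hist1h1c at chr13:23830676-23831400. The Hist1h1c window held AAACACA 112 bases and CCAAT 54 bases before the start site, and the H1f0 window held neither and no TATAAA. Of the 32851 promoter windows of 250 bases searched on both strands, 6.25% held AAACACA, 33.9% held CCAAT and 12.4% held TATAAA. Among the other clustered genes, on chromosome 13, the windows of Hist1h1b, Hist1h1d and Hist1h1e each held all 3 motifs. The window of H1fx, which lies on chromosome 6 and outside that cluster, held none of the 3. The H1f0 window had a GC content of 74.4%, and the Hist1h1c window had 50.4%.

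H1f0 was read at 212, 226 and 223 CPM (counts scaled to a common library total after TMM normalization) in LFDHFB replicates 1 to 3. It was read at 436, 320 and 318 CPM in the LFDLFB replicates. The LFDHFB libraries sat close together and all lay under the LFDLFB libraries, of which replicate 1 was the highest. The log2 fold change was −0.70 ± 0.14 (SE), with a 95% interval of −1.01 to −0.39 and an unadjusted p of 0.00037 in edgeR's quasi-likelihood test. It was the only gene of 15893 tested under the study's threshold of an unadjusted p of 0.001 (0.00629%), and its Benjamini-Hochberg adjusted p was 0.975. With DESeq2 its p was 2.7e-06 and its adjusted p 0.053. Without LFDLFB replicate 1, the highest library, the log2 fold change was −0.52, and without LFDHFB replicate 3 it was −0.71 with an unadjusted p of 0.0011. The 6 libraries of HFD-fed recipients read H1f0 at 194 to 241 CPM, with both donors in that range, so the LFDLFB libraries were the 3 highest of all 12.

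Hist1h1c was read at 103, 149 and 96.0 CPM in LFDHFB and at 286, 162 and 206 CPM in LFDLFB. The groups did not overlap, but LFDHFB replicate 2 and LFDLFB replicate 2 were close to each other. The log2 fold change was −0.91 ± 0.23 (SE) with an unadjusted p of 0.0021 (adjusted p = 0.975). The other 4 linker histone genes tested were read at under 6 CPM in every library of these groups, overlapped between the groups and had log2 fold changes of −1.31 (Hist1h1d), −0.80 (Hist1h1e), −0.61 (H1fx) and −0.61 (Hist1h1b). Summed over the family, linker histone reads came to 317, 379 and 321 CPM in LFDHFB and 731, 486 and 527 CPM in LFDLFB. This list was put together after the values of H1f0 were seen. Of the 17 core histone genes tested, 16 had a negative log2 fold change, with a median of −0.44 against 0.02 over all genes tested. None had an unadjusted p under 0.05 in edgeR, and 2 were lower at that p without LFDHFB replicate 3, against 0.902% of all genes.

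**Figure D1:**
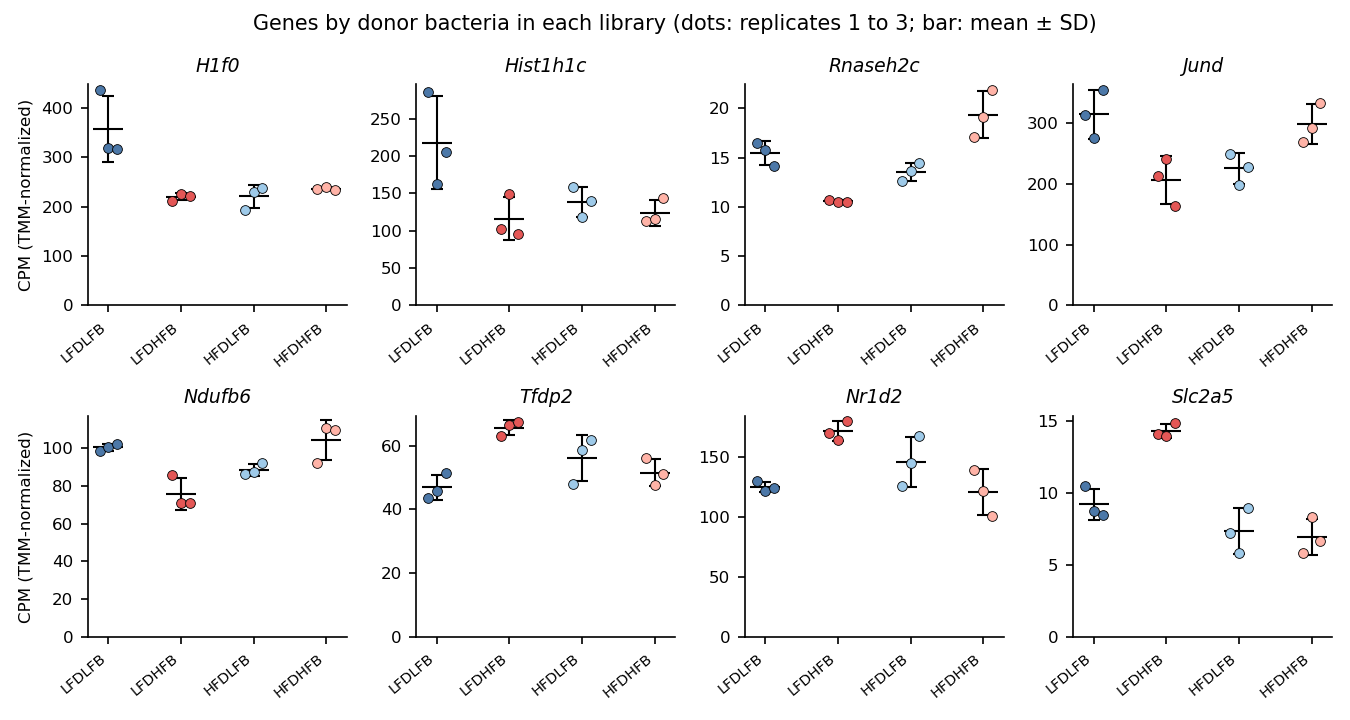
CPM (y axis, from 0, a scale of its own for each gene) of 8 genes in each library of the 4 groups, with dots for replicates 1 to 3 and bars for the mean ± SD. For H1f0, Hist1h1c, Rnaseh2c, Jund and Ndufb6 the 3 LFDHFB libraries lie below the 3 LFDLFB libraries, and for Tfdp2, Nr1d2 and Slc2a5 they lie above them.

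Before the other genes, the composition of each library has to be stated, since LFDHFB replicate 3 stood apart. The 6 libraries held 42231143 to 48026846 counted reads, with 17358 to 17784 genes with a read and 6.47% to 8.26% of reads in the 10 most abundant genes. Rank correlations between libraries (Spearman, over the genes tested) were 0.982 to 0.993 among the other 5 libraries once LFDHFB replicate 3 was set aside, and 0.945 to 0.972 between it and them. It read 901 genes over 2-fold above, and 486 genes over 2-fold below, all of the other 5 libraries, while each of those had 6 to 38 such genes above and 22 to 90 below. Epithelial markers were abundant in every library, so the labelled tissue was present. Summed over 8 pan-epithelial genes, they came to 9808 CPM in LFDHFB replicate 3 and to 13736 to 15520 CPM in the others. Smooth muscle markers, which belong to the wall under the epithelium, summed to 2083 to 5361 CPM and were highest in LFDHFB replicate 3 and LFDLFB replicate 2.

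Position genes separated LFDHFB replicate 3 from the rest. Hoxb13, the most distal of the Hoxb genes, was read at 738, 598 and 16.4 CPM in LFDHFB and at 827, 454 and 771 CPM in LFDLFB. Hoxd13 was read at 93.9, 113 and 0.519 CPM in LFDHFB and at 86.5, 45.2 and 148 CPM in LFDLFB. Both genes overlapped between the groups, and 1 library of 6 was far below the rest. In the other direction, Hoxb6 was read at 2.09, 5.50 and 25.1 CPM in LFDHFB and at 0.890, 3.54 and 1.14 CPM in LFDLFB. Against the mean of the 6 libraries, the median of the 13 posterior Hox genes stood at −0.86 (log2) in LFDHFB replicate 3 and between 0.10 and 0.29 in the others. The median of the 20 anterior Hox genes stood at 1.75 in LFDHFB replicate 3 and at −0.73 to 0.28 elsewhere. Colonocyte markers were mixed in that library. It had the highest sum over the 8 absorptive colonocyte genes (16655 CPM, against 10670 to 15355 in the others). Car1 alone made up 9129 CPM of that sum, against 1926 to 3120 CPM in the others. The median deviation of the 8 genes was −0.17 there and −0.17 to 0.37 in the others. LFDHFB replicate 3 was the lowest for Car4, Slc26a3 and Aqp8, at 895, 973 and 227 CPM against 2079 to 3757, 1969 to 4115 and 926 to 1866 CPM in the others. It was the highest for markers of enteric neurons (421 CPM summed, against 70.3 to 235), enteric glia (53.1 against 9.39 to 32.2), enteroendocrine cells (1227 against 282 to 582) and fat cells (894 against 29.8 to 324). In bulk libraries, fewer cells of a type and less RNA per cell cannot be told apart. Results that rest on this library are given with and without it, and the part of its composition in them was not tested.

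**Figure D2:**
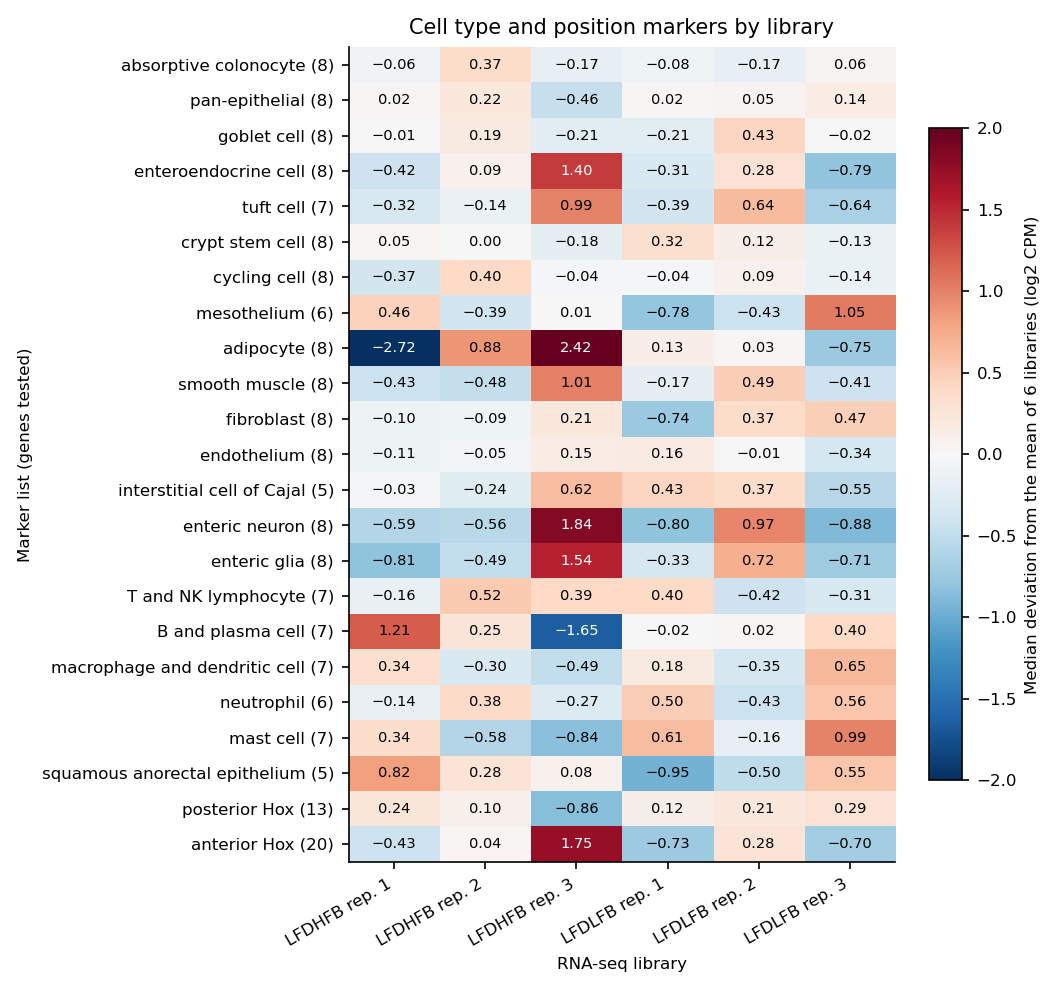
Marker lists (rows, with the number of genes tested) by library (columns): the printed number and the colour are the median over the list's genes of each library's deviation from the mean of the 6 libraries, in log2 CPM (colour scale cut at −2 and 2). LFDHFB replicate 3 holds the highest value of the enteric neuron, enteric glia, enteroendocrine and anterior Hox rows and the lowest of the posterior Hox row, and LFDLFB replicate 2 is the second highest for neurons and glia.

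Over all genes the donor effect was small against the spread between libraries. Of 15893 genes tested by edgeR, 0 passed an adjusted p of 0.05 and 592 (3.72%) had an unadjusted p under 0.05, called the nominal threshold here, of which 319 (2.01%) were higher and 273 (1.72%) lower in LFDHFB. DESeq2, which the study used, also left 0 genes past an adjusted p of 0.05 and put 27 of 19442 genes (0.139%) under the unadjusted p of 0.001, 15 of them higher (0.0772%) and 12 lower (0.0617%). For 13 of those 15 the highest library was LFDHFB replicate 3, and 16 of the 27 are among the 24 genes named below for their edgeR p. In 835 genes (5.25%) all LFDHFB libraries lay above all LFDLFB libraries, and in 886 (5.57%) below them. The 95% interval lay within 2-fold either way for 10312 genes (64.9%), and for 8669 (87.9%) of the 9865 genes with a mean log2 CPM above 3. For those genes a 2-fold donor effect was outside the interval. Genes such as Sis, Ppp3r2, Ugt8a, Cpb2 and Cubn, all read highest in LFDHFB replicate 3, had intervals wholly beyond 2-fold. Where the interval held effects both under and over 2-fold, the libraries could not tell. The intervals use the spread within all 4 groups. A fitted difference of over 2-fold was found for 589 genes in the higher and 76 in the lower direction, and in 519 of the 589 the highest library was LFDHFB replicate 3. Without that library, 572 genes had a fitted difference of over 2-fold in either direction. Without that library, 174 genes (1.08%) were higher and 145 (0.902%) lower at an unadjusted p under 0.05. Of the genes so listed, 72 were higher in both fits (22.6% of those with all libraries and 41.4% of those without it) and 88 were lower in both (32.2% and 60.7%).

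**Figure D3:**
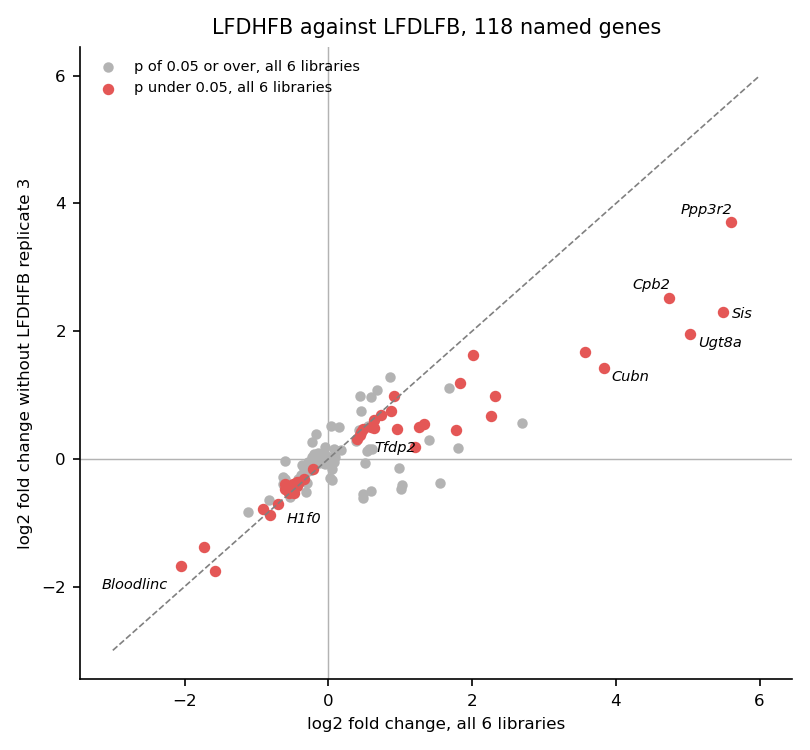
Log2 fold change of LFDHFB against LFDLFB for the 118 named genes with all 6 libraries (x axis) and without LFDHFB replicate 3 (y axis), with the dashed line at equal values. Genes such as H1f0, Tfdp2 and Bloodlinc lie near the line, while Sis (5.50 against 2.30), Ugt8a (5.03 against 1.95) and Cubn (3.84 against 1.41) lie far under it.

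The 12 lower genes with the smallest p were H1f0, Rnaseh2c, Hist1h1c, Bloodlinc, Fmc1, Coa6, Zfp771, Ndufb6, Jund, Ndufaf3, Romo1 and Dpm3. Ndufb6 is a subunit and Ndufaf3 an assembly factor of respiratory complex I, Coa6 serves the assembly of complex IV, Fmc1 that of the ATP synthase, and Romo1 sits in the mitochondrial inner membrane. The groups did not overlap for any of the 12, by which they were in part chosen. Rnaseh2c, a subunit of the enzyme that removes ribonucleotides from DNA, was read at 10.7, 10.5 and 10.5 CPM in LFDHFB and at 16.5, 15.7 and 14.1 CPM in LFDLFB. Its log2 fold change was −0.55 ± 0.13 (SE), with an unadjusted p of 0.0015. Ndufb6 was read at 85.6, 71.1 and 70.9 CPM in LFDHFB and at 98.6, 101 and 102 CPM in LFDLFB, a log2 fold change of −0.41 ± 0.11 (SE). Here the LFDLFB libraries hardly differed among themselves and the nearest LFDHFB library was replicate 1. Coa6 was read at 14.1, 12.3 and 14.8 CPM in LFDHFB and at 20.2, 17.6 and 19.7 CPM in LFDLFB (log2 fold change −0.48). Zfp771, a zinc finger gene, was read at 2.96, 2.88 and 3.35 CPM in LFDHFB and at 5.89, 5.27 and 4.94 CPM in LFDLFB (−0.81). Bloodlinc, a long non-coding RNA, had 2 to 7 reads in each LFDHFB library and 15 to 26 in each LFDLFB library. All 12 had the same sign and a p under 0.05 without LFDHFB replicate 3, although 9 of DESeq2's 12 lower genes had their lowest value in it.

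The small proteins of the respiratory chain and of ribosomes pointed the same way as a family. All 35 complex I subunit genes tested had a negative log2 fold change, with a median of −0.27 against 0.02 over all genes, and 16 of them were under the nominal threshold against 1.72% of all genes in that direction. All 9 complex III genes were negative (median −0.32, 5 under the nominal threshold), as were 12 of 13 complex IV genes (−0.25, 0 under the nominal threshold in edgeR) and 16 of 17 genes with ATP synthase symbols (−0.22, 2 under the nominal threshold). Cytosolic ribosomal proteins were negative in 79 of 81 genes (−0.27, 3 under the nominal threshold) and mitochondrial ribosomal proteins in 72 of 74 (−0.18, 17 under the nominal threshold). Proteasome subunits, which degrade tagged proteins, were negative in 34 of 37 (−0.12, 7 under the nominal threshold). Without LFDHFB replicate 3 the medians were −0.21 for complex I, −0.23 for complex III, −0.14 for both kinds of ribosomal protein and −0.12 for the proteasome. The numbers of genes under the nominal threshold were then 8 for complex I, 2 for complex III, 0 for the ATP synthase, 0 for cytosolic and 7 for mitochondrial ribosomal proteins and 2 for the proteasome, all in edgeR. Over all genes, 0.902% were lower at that threshold in that fit. The families were picked by symbol after values had been seen, their members share libraries, and none of the differences passed an adjusted p of 0.05.

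Transcript length and GC content moved with these differences. Of the genes with a mean log2 CPM above 2 and a known length, the shortest of 4 equal bins (259 to 1976 bases) had a median log2 fold change of −0.12 and the longest bin (4519 to 23407 bases) one of 0.13. The bin of lowest GC content had a median of 0.14 and the bin of highest GC content one of −0.11. Complex I transcripts had a median length of 971 bases and cytosolic ribosomal ones of 860, against 2989 over all tested genes with a length. With offsets for length and GC content, a choice made after seeing the data, the medians were −0.11 for complex I with 5 of 35 genes under the nominal threshold, −0.08 for complex III and −0.12 for cytosolic ribosomal proteins. Over all 15893 genes, 393 were under the nominal threshold in either direction with the offsets, against 592 without them. In that fit Romo1 and Ndufaf3 each had a log2 fold change of −0.14, against −0.43 and −0.34 without the offsets. Hist1h1c had a log2 fold change of −0.79 and Rnaseh2c one of −0.35, while H1f0, which had no length in the annotation used, was not adjusted. The 17 core histone genes, with a median length of 618 bases, had a median of −0.22 with the offsets, against −0.44 without them. With the offsets 0 of them were lower at the nominal threshold. The part of length, GC content or RNA quality in these differences was not tested further.

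**Figure D4:**
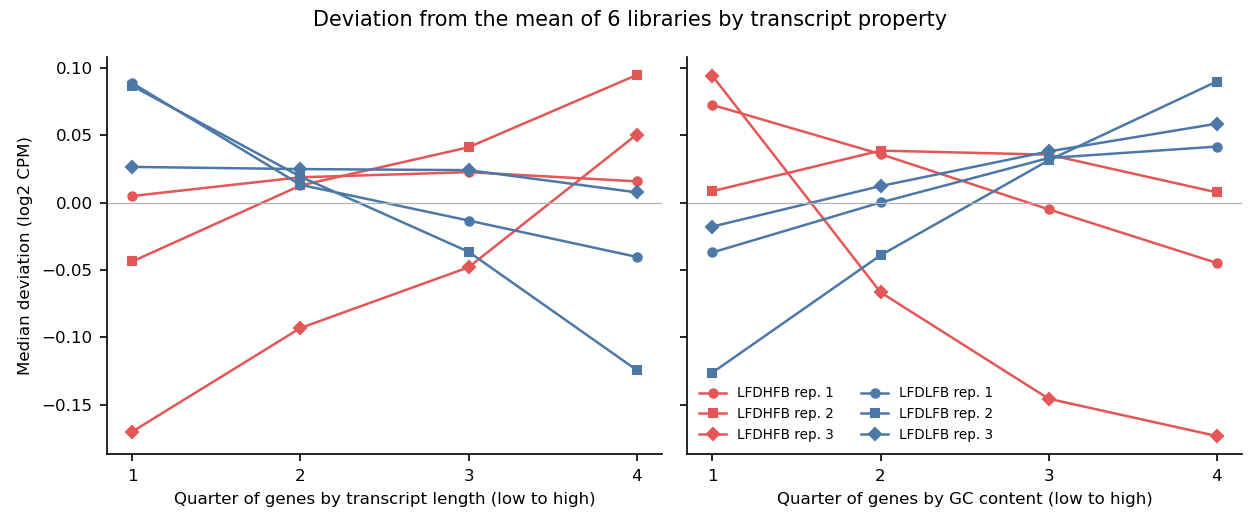
Median deviation of each library from the mean of the 6 libraries (y axis, log2 CPM) over 4 equal bins of genes from low to high transcript length (left) and GC content (right). LFDHFB replicate 3 runs from −0.17 for the shortest to 0.05 for the longest transcripts, and LFDLFB replicate 2 runs the other way, from 0.09 to −0.12.

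AP-1 genes encode the transcription factor dimers of the immediate early response. Of 22 members, 2 were lower at the nominal threshold, against 1.72% of all genes in that direction. Jund was read at 213, 241 and 164 CPM in LFDHFB and at 314, 275 and 354 CPM in LFDLFB, without overlap (log2 fold change −0.61 ± 0.17 SE, unadjusted p of 0.0038). Junb was read at 96.4, 115 and 84.4 CPM in LFDHFB and at 147, 110 and 161 CPM in LFDLFB, where LFDHFB replicate 2 exceeded LFDLFB replicate 2 (−0.50 ± 0.16, unadjusted p of 0.0089). Fos, their partner, was read at 92.8 to 144 CPM in LFDHFB and 118 to 163 CPM in LFDLFB (−0.28, unadjusted p of 0.22). The list's median was −0.29, and without LFDHFB replicate 3 it was −0.15 with 3 members under the nominal threshold (Jun, Junb and Jund). In that fit 0.902% of all genes were lower at that threshold. With the offsets for length and GC content the list's median was −0.20, with 1 member lower at the nominal threshold. In that fit 393 of 15893 genes were under it in either direction.

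The 12 higher genes with the smallest p fell into 2 kinds by their values. Tfdp2, Trim2, Smim13, Mid2, Nr1d2 and 5830444B04Rik differed by less than 2-fold and about equally in all 3 LFDHFB libraries. Sis, Ppp3r2, Ugt8a, Cpb2, Cubn and 5730507C01Rik differed by more, and LFDHFB replicate 3 was the highest library for each. Tfdp2, the dimer partner of E2F factors, was read at 63.0, 66.4 and 67.6 CPM in LFDHFB and at 43.7, 45.6 and 51.4 CPM in LFDLFB. Its log2 fold change was 0.49 ± 0.12 (SE) with an unadjusted p of 0.0016, and without LFDHFB replicate 3 it was 0.46. Nr1d2, which encodes the clock repressor REV-ERBβ, was read at 171, 164 and 181 CPM in LFDHFB and at 130, 122 and 124 CPM in LFDLFB (0.45 ± 0.14, unadjusted p of 0.0070). Its group separation was clear, but it was the only 1 of 20 clock genes under the nominal threshold, and its paralogue Nr1d1 was read at 112 to 191 CPM in LFDHFB and 180 to 234 CPM in LFDLFB (−0.39, unadjusted p of 0.099). Trim2, a ubiquitin ligase, was read at 206, 200 and 243 CPM in LFDHFB and at 146, 153 and 134 CPM in LFDLFB (0.59). 5830444B04Rik, of unknown function, was read at 10.6, 10.1 and 9.01 CPM in LFDHFB and at 5.13, 4.59 and 6.06 CPM in LFDLFB (0.92).

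Sis, the brush border sucrase-isomaltase of the small intestine, was read at 5.34, 9.31 and 187 CPM in LFDHFB and at 2.02, 1.95 and 0.480 CPM in LFDLFB. The groups did not overlap even without the highest library, but the fitted log2 fold change went from 5.50 ± 1.42 (SE) to 2.30 (unadjusted p of 0.019) when it was left out. Cubn, the receptor for vitamin B12 bound to intrinsic factor, was read at 2.47, 5.73 and 57.8 CPM in LFDHFB and at 2.28, 0.721 and 1.6 CPM in LFDLFB. Its log2 fold change of 3.84 was 1.41 (unadjusted p of 0.074) without LFDHFB replicate 3. Ugt8a, which makes galactosylceramide, was read at 0.667, 1.51 and 25.4 CPM in LFDHFB and at 0.304, 0.394 and 0.137 CPM in LFDLFB. Ppp3r2 had at most 2 reads in each LFDLFB library. The high library of these genes is the one with the low Hoxb13 and Hoxd13 levels described above.

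Detoxification genes made the longest list of higher members. Of 31 tested, 8 were higher at the nominal threshold against 2.01% of all genes, namely Ahr, Cyp1b1, Cyp2c65, Cyp2d26, Ces1g, Ugt1a1, Ugt2b5 and Abcb1a. Cyp2c65, a cytochrome P450, was read at 37.5, 84.7 and 652 CPM in LFDHFB and at 32.8, 95.4 and 20.9 CPM in LFDLFB, so that the groups overlapped apart from 1 library. Cyp1b1, induced through the aryl hydrocarbon receptor, had 15, 16 and 31 reads in LFDHFB and 2, 6 and 7 in LFDLFB, and was the 1 member still under the nominal threshold without LFDHFB replicate 3 (log2 fold change 1.63, unadjusted p of 0.036). Abcb1a, the efflux pump P-glycoprotein, was read at 828, 982 and 1752 CPM in LFDHFB and at 861, 591 and 610 CPM in LFDLFB. Genes of bile acid uptake behaved likewise: Slc10a2, the apical sodium-dependent bile acid transporter, was read at 103, 114 and 768 CPM in LFDHFB and at 44.5, 81.2 and 78.8 CPM in LFDLFB, and Slc51a, a subunit of the basolateral exporter, at 7.03, 34.4 and 305 CPM against 12.1, 19.4 and 1.03 CPM. They were the 2 of 14 members of the list of bile acid and short-chain fatty acid sensing and transport under the nominal threshold, against 2.01% of all genes in that direction. Without LFDHFB replicate 3 none was by edgeR (Slc10a2 0.67, unadjusted p of 0.19).

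Of 32 genes of fatty acid oxidation and ketogenesis, 3 were higher at the nominal threshold, against 2.01% of all genes, and 24 had an interval within 2-fold. The 3 were the regulator Ppara (30.1, 42.1 and 200 CPM in LFDHFB, 24.4, 33.1 and 21.9 CPM in LFDLFB), Acaa1b and Angptl4. Without LFDHFB replicate 3, Ppara had a log2 fold change of 0.45 (unadjusted p of 0.22). In that fit 1 member outside these 3 was higher at the nominal threshold, against 1.08% of all genes. Of 29 genes of cholesterol and fatty acid synthesis, none was under the nominal threshold in edgeR and 22 had an interval within 2-fold. In that list Scd1, the stearoyl-CoA desaturase, was read at 76.1, 369 and 2093 CPM in LFDHFB and at 242, 362 and 264 CPM in LFDLFB and its log2 fold change of 1.55 became −0.38 without LFDHFB replicate 3. Against the same 2.01% of all genes, 1 of 23 transporters of amino acids, sugars and vitamins was higher at the nominal threshold. This was Slc2a5, the fructose carrier GLUT5, at 14.1, 13.9 and 14.9 CPM in LFDHFB and 10.5, 8.74 and 8.46 CPM in LFDLFB (log2 fold change 0.63 ± 0.20 SE, unadjusted p of 0.0081, and 0.60 without LFDHFB replicate 3). Of 33 genes of ion and water transport, only Car1, a carbonic anhydrase, was under the nominal threshold, against the same share of all genes. It was read at 2803 to 9129 CPM in LFDHFB and at 1926 to 2223 CPM in LFDLFB. Its log2 fold change was 0.49 (unadjusted p of 0.25) without LFDHFB replicate 3.

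Flavin monooxygenases, which oxidize nitrogen- and sulphur-bearing compounds, differed among themselves. Fmo5 was read at 95.9, 137 and 370 CPM in LFDHFB and at 84.5, 76.7 and 78.6 CPM in LFDLFB, without overlap (log2 fold change 1.33, unadjusted p of 0.015, and 0.55 with an unadjusted p of 0.13 without LFDHFB replicate 3). The groups overlapped for Fmo1, Fmo2 and Fmo4, whose log2 fold changes were 0.05, 0.11 and 0.04.

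Immune genes showed little that was shared by the libraries. Of 30 interferon-stimulated genes, 1 was under the nominal threshold (Oas3, log2 fold change 0.64), and of 18 cytokines and chemokines 1 (Ccl25, 0.73). Both were higher, as were 2.01% of all genes at that threshold. Without LFDHFB replicate 3 neither Oas3 nor Ccl25 was (Oas3 0.49, unadjusted p of 0.10, and Ccl25 0.69, unadjusted p of 0.053). In that fit 1 other interferon-stimulated gene was higher at the nominal threshold, against 1.08% of all genes. The 10 genes of MHC class II presentation had a median of 0.27 with every member positive and none under the nominal threshold in edgeR, and 0.60 with 1 member, Ciita, under the nominal threshold without LFDHFB replicate 3. With LFDHFB replicate 3 included, 1.72% of all genes were lower at the nominal threshold. Of 22 epithelial genes of the antimicrobial response, 1 was lower at the nominal threshold, Saa3, an acute phase protein (27.9, 19.3 and 33.0 CPM in LFDHFB, 46.7, 24.7 and 168 CPM in LFDLFB). Its log2 fold change of −1.58 was −0.40 without LFDLFB replicate 3, and its largest unadjusted p over the alternatives was 0.41. Reg3b, a bactericidal lectin, varied from 0.663 to 82.5 CPM within LFDLFB and from 18.5 to 397 CPM within LFDHFB, so that no donor effect could be told from that spread (unadjusted p of 0.15). Of 24 genes of the heat shock and unfolded protein response, 2 were lower at the nominal threshold (Herpud1, −0.61, and Xbp1, −0.22), and of 27 genes that write, read or erase histone acetylation 1 was, the deacetylase Hdac3 (−0.22), while 26 of those 27 had an interval within 2-fold. Without LFDHFB replicate 3 none of these 3 was under the nominal threshold (Herpud1 −0.39, Xbp1 −0.21 and Hdac3 −0.16). The enteroendocrine list gave 4 of 17 higher at the nominal threshold, the peptide hormone Nts, the granin Chgb and the transcription factors Neurod1 and Pax6. Anterior Hox genes gave 4 of 20 (Hoxb3, Hoxb6, Hoxb7 and Hoxb8), and 2.01% of all genes were higher at that threshold. For each of these 8 the highest library was LFDHFB replicate 3. Without it, 0 of those 8 were under the nominal threshold.

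For 11 of the 26 pathway lists no member was under the nominal threshold in edgeR. Besides the synthesis genes of cholesterol and fatty acids, MHC class II and the posterior Hox genes, these were mucus and goblet secretion (15 tested, 12 within 2-fold), tight junctions and claudins (21, 15 within 2-fold), stem cell and Wnt targets (24, 13), the cell cycle (25, 17), the hypoxia response (18, 13), identity transcription factors (17, 12), complement (20, 5) and collagen and matrix (24, 6). Hnf4a, the nuclear receptor that sets intestinal identity, was read at 1267, 1497 and 965 CPM in LFDHFB and at 1436, 1153 and 1287 CPM in LFDLFB, with a log2 fold change of −0.06 (95% interval −0.48 to 0.37). Sulf2, an extracellular sulfatase, was read at 10.4, 17.7 and 29.4 CPM in LFDHFB and at 9.36, 15.5 and 13.2 CPM in LFDLFB (0.60, unadjusted p of 0.19, and 0.15 without LFDHFB replicate 3).

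By cell type, 19 of 23 marker lists had no member under the nominal threshold in edgeR. The exceptions were absorptive colonocytes (Car1), enteroendocrine cells (Chgb and Neurod1), lymphocytes (Cd8a, 1.58, 2.90 and 2.83 CPM in LFDHFB against 1.46, 1.31 and 1.21 CPM in LFDLFB) and mast cells, where Cpa3 (log2 fold change −1.39) and Mcpt4 (−1.73) were lower in LFDHFB. Mcpt4 was read at 0.734, 0.228 and 0.173 CPM in LFDHFB and at 0.977, 0.940 and 1.88 CPM in LFDLFB. Without LFDHFB replicate 3, none of the 23 lists had a member under the nominal threshold in edgeR. Goblet cell markers summed to 24704, 25692 and 16272 CPM in LFDHFB and to 19605, 29510 and 23791 CPM in LFDLFB, and cycling cell markers to 189, 251 and 210 CPM and to 202, 218 and 188 CPM. In both lists the groups overlapped, and 7 of 8 goblet markers had an interval within 2-fold. Fat cell markers also overlapped between the groups, since they summed to 29.8, 324 and 894 CPM in LFDHFB and to 203, 171 and 85.8 CPM in LFDLFB. Red blood cell markers came to 2.98 to 10.1 CPM, with 5 globin genes at 0 in all 6 libraries, and pancreatic markers to 0.173 to 1.10 CPM. Hmgcs1, of the cholesterol and fatty acid synthesis list, was also at 0 in all 6. Why Hmgcs1 and the globin genes had no reads was not tested, so the globin zeros are not read as absent blood. Neutrophil markers summed to 17.8 to 792 CPM, nearly all of it Ly6g (16.3 to 789 CPM), lowest in LFDHFB replicate 3 and next lowest in LFDLFB replicate 2. That sum follows 1 gene and is not read as a level of neutrophils, and the cell source of Ly6g was not tested.

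The donor effect was also set beside that in HFD-fed recipients, which are 6 other libraries. There, HFDHFB against HFDLFB gave 14 genes (0.0881%) at an unadjusted p under 0.001 and 1441 (9.07%) under 0.05, with 0 past an adjusted p of 0.05 in edgeR and 80 in DESeq2. By edgeR, 5 (0.0315%) and 771 (4.85%) were higher in HFDHFB and 9 (0.0566%) and 670 (4.22%) lower, and the groups did not overlap for 1289 (8.11%) and 779 (4.9%) genes in the same directions. The difference of the donor effect between the diets, tested as an interaction of 12 libraries, gave 19 genes (0.12%) under 0.001 and 1794 (11.3%) under 0.05, with 0 past an adjusted p of 0.05 in edgeR and 35 in DESeq2. The donor effect was higher on the LFD for 787 (4.95%) and lower for 1007 (6.34%) of the 1794 genes. The genes named above were chosen for their LFD effect, which the difference between diets contains, so their difference is given as a description. Rnaseh2c had a log2 fold change of −0.55 on the LFD and of 0.51 on the HFD, Zfp771 of −0.81 and 0.79, and Fmc1 of −0.43 and 0.29. For H1f0 the effects were −0.70 and 0.10, a difference of −0.80 (95% interval −1.23 to −0.37). The respiratory and ribosomal families had opposite medians by diet: −0.27 and 0.25 for complex I, −0.32 and 0.29 for complex III, −0.27 and 0.36 for cytosolic and −0.18 and 0.26 for mitochondrial ribosomal proteins. Transcript length turned with them, since the shortest bin had a median of −0.12 on the LFD and 0.15 on the HFD, and the longest 0.13 and −0.13. Fat cell and mesothelial markers, with medians of 1.47 and −0.14 by donor on the LFD (0.14 and −0.09 without LFDHFB replicate 3), had medians of −3.08 and −2.20 on the HFD, and Fmo2, read at 43.5 to 113 CPM in the LFD-fed libraries, was at 23.5, 37.0 and 40.6 CPM in HFDHFB and 284, 218 and 73.0 CPM in HFDLFB.

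**Figure D5:**
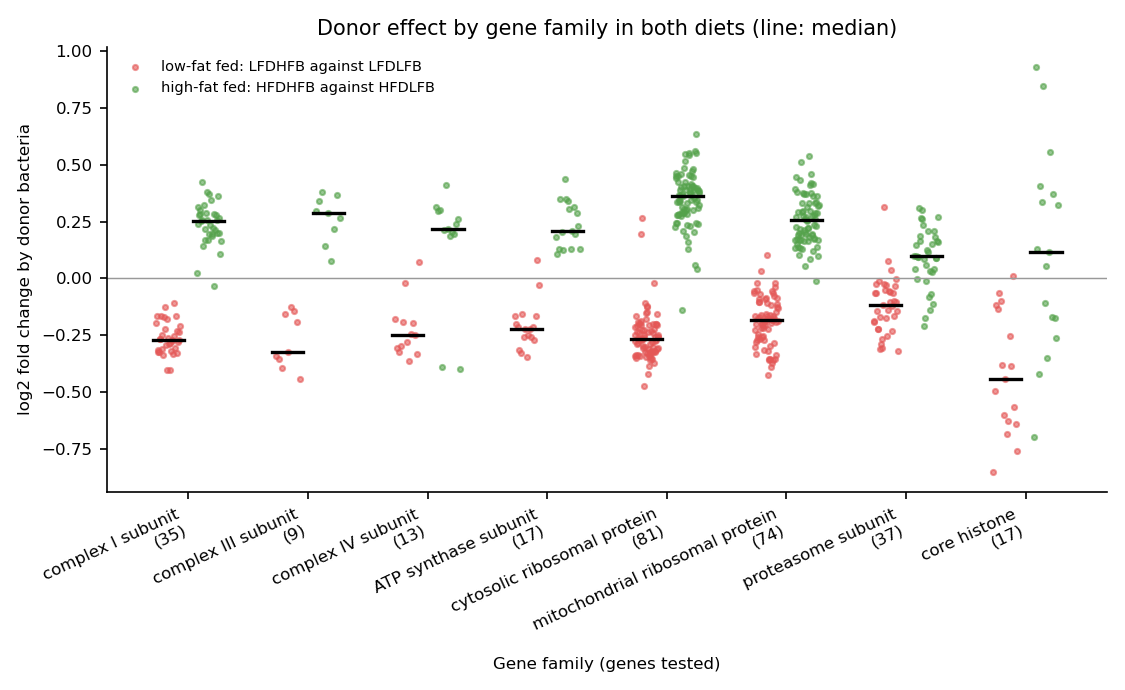
Log2 fold change by donor bacteria (y axis) of each gene tested in 8 families picked by symbol, with red dots for LFD-fed and green dots for HFD-fed recipients and a black line at the median. For complex I, complex III and the ribosomal families the LFD medians lie below 0 and the HFD medians above it (complex I −0.27 and 0.25).

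H3K27ac, the histone mark of active promoters and enhancers, was mapped in 3 LFDHFB and 3 LFDLFB libraries of colon epithelium, for which the deposited lists give peak positions without heights. Each library had 39684 to 45797 peaks covering 93.0 to 117 megabases. Of the 118 named genes, 66 (55.9%) had a peak within 1000 bp of a start site in all 6 libraries and 34 (28.8%) in none, against 70.2% and 19.4% of all genes tested. The rule named members of every list, among them markers of other cells such as Lep, Fabp4 and Elavl4, which had no peak in any library. These shares therefore describe the named set and not the genes that differ by donor. H1f0, Hist1h1c, Rnaseh2c, Coa6, Zfp771, Ndufb6, Jund, Tfdp2, Trim2 and Nr1d2 had a peak in all 6, so that a present or absent peak did not separate the donors there. Sis, Ugt8a, Cpb2 and Ppp3r2 had none in any library. Only Mid2, a ubiquitin ligase gene on the X chromosome, had a peak in all LFDLFB libraries and none in the LFDHFB libraries, which 21 of all genes tested had, while its RNA was read at 67.7, 69.7 and 77.8 CPM in LFDHFB and at 52.9, 47.2 and 59.2 CPM in LFDLFB. The reverse pattern was held by 10 genes of all tested and by 0 of the named genes. Whether a ChIP-seq library and the RNA-seq library of the same number came from 1 animal is not given in the sources used here.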

How the data were processed

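RNA was taken from scraped colon cells of transplanted mice. The authors aligned reads with STAR 2.5 to mm9 and deposited raw read counts per gene from featureCounts 1.5.0-p1, not normalized. The authors' H3K27ac peaks (Bowtie 0.12.8, SICER, 1 list per library) hold coordinates only. Library, strand and read settings are not given in the sources used here. Of 25494 loci, 15893 passed filterByExpr and were tested with edgeR 4.0.16 (R 4.3.3), by TMM normalization and quasi-likelihood F-tests, 4 groups in 1 fit, with Benjamini-Hochberg adjustment over all of them. Log2 CPM used a prior count of 2. Transcript lengths, GC content and start sites came from GENCODE vM1 (mm9), with a length for 13980 genes (88.0%), and start sites of 1481 genes from the count table. DESeq2 1.42.0 and limma 3.58.1 (voom) served as alternatives. Only the edgeR fit of LFDHFB against LFDLFB was tried on simulated counts. Those had a smaller spread than these data and no library that stood apart, so the trial does not carry over to these data. Named genes were the 12 smallest p in each direction, for each list the smallest p, the most abundant member and any p under 0.01, flavin monooxygenases (1 result is not reported here), Scd1, Sulf2, Hnf4a and every gene past an adjusted p of 0.05, of which there was none (118 genes). Other genes named, such as Hox genes, Car4 and Reg3b, were chosen after their values were seen. The members and lists were chosen with earlier results of these data known. Leaving out each library in turn was among the alternatives.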

Additional observations from a re-analysis of the deposited data

Results flagged for a closer look

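For 3 named genes the difference of the donor effect between the recipient diets had an unadjusted p under 0.001 in edgeR's interaction test, as had 19 of all 15893 genes (0.12%), or 2 of all genes with the replicate block. None had an adjusted p under 0.05 (0.386 for each). The 3 were named for their small p on the LFD, and the interaction contains that same LFD effect, so these p-values are no independent evidence of a difference between diets. Rnaseh2c differed by −1.06 (log2, 95% interval −1.47 to −0.65, unadjusted p of 0.00013): LFDHFB libraries were read at 10.5 to 10.7 CPM, LFDLFB at 14.1 to 16.5, HFDHFB at 17.1 to 21.9 and HFDLFB at 12.6 to 14.4, without overlap by donor on either diet. Zfp771 differed by −1.59 (interval −2.27 to −0.92, unadjusted p of 0.00027), with 2.88 to 3.35 CPM in LFDHFB, 4.94 to 5.89 in LFDLFB, 4.99 to 8.16 in HFDHFB and 3.53 to 4.11 in HFDLFB. Fmc1 differed by −0.73 (interval −1.08 to −0.38, unadjusted p of 0.0008), with 25.5 to 31.2 CPM in LFDHFB, 36.4 to 41.8 in LFDLFB, 39.9 to 46.4 in HFDHFB and 33.1 to 38.4 in HFDLFB. Rnaseh2c and Zfp771 have transcripts of 1126 and 1232 bases, and short transcripts had opposite medians by diet (−0.12 and 0.15). With the offsets for length and GC content, edgeR's interaction test gave 14 genes at an unadjusted p under 0.001 and 1141 under 0.05. Without the offsets it gave 19 and 1794. The part of transcript length in the differences of Rnaseh2c and Zfp771 was not tested further.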

How the results depend on the processing

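No gene passed an adjusted p of 0.05 for LFDHFB against LFDLFB under any alternative. The single gene at an unadjusted p under 0.001 became 27 with DESeq2, 12 with the likelihood ratio test, 11 with voom and quality weights, 2 with upper quartile scaling or with at least 50 reads in 3 libraries, and 0 with only the 6 libraries compared. Leaving out 1 library gave 0 to 8 such genes, with 8 without LFDHFB replicate 1, 5 without LFDLFB replicate 2 and 0 without LFDLFB replicate 1. For HFDHFB against HFDLFB, 14 became 167 (DESeq2), 111 (likelihood ratio) and 95 (voom), and 1 to 120 when 1 library was left out (120 without HFDLFB replicate 3). For the difference between diets, 19 became 173, 85 and 152 under the same 3, and 2 to 97 with 1 library left out (97 without HFDHFB replicate 1). The cause of these shifts was not tested. H1f0 stayed between −0.78 and −0.52 under all 23 alternatives, but its unadjusted p exceeded 0.001 in 6 of them: with only the 6 libraries compared, with the replicate block, and without LFDLFB replicate 1 or any of the 3 LFDHFB libraries. At this depth 1 read of a gene corresponded to a log2 CPM of −5.59 to −5.40, so genes such as Ppp3r2 and Bloodlinc rest on few reads. All 42 named genes with p under 0.05 kept their sign under every alternative. Named genes with a peak in all 6 H3K27ac libraries came to 66, and to 66 to 72 under the other settings. Deviations from the group means correlated at 0.24, −0.54 and −0.48 between LFDHFB and LFDLFB libraries of equal replicate number. Such deviations are tied to each other within a group, and LFDHFB replicate 3 stood apart. So these values cannot show whether equal numbers mark a pairing. With the replicate block the counts were 0, 5 and 2. Voom, the robust prior and the length and GC offsets were added after seeing the data.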

Other observations

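Genes of lymphoid follicles are given as a description, since the list was put together after values had been seen in the same fit. Over its 16 genes the median log2 fold change was 0.80 without that library and 0.32 with it, against −0.00 and 0.02 over all genes tested, and 3 were higher under an unadjusted p of 0.05 without it (1.08% of all genes) and 0 in edgeR with it. Cr2, the complement receptor of B cells and follicular dendritic cells, was read at 2.98, 1.6 and 0.216 CPM in LFDHFB and at 0.586, 0.547 and 0.343 CPM in LFDLFB (2.21 without the third library, unadjusted p of 0.0057). Ccr6, the chemokine receptor that brings lymphocytes to the follicle dome, was read at 1.07, 1.21 and 0.173 CPM in LFDHFB and at 0.456, 0.262 and 0.343 CPM in LFDLFB, and H2-Eb2 at 2.22, 1.48 and 0.389 CPM against 0.717, 0.568 and 0.458 CPM. LFDHFB replicates 1 and 2 were above every LFDLFB library for these 3 genes, and replicate 3 was below them.

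Ak7, an adenylate kinase, had the smallest p of all genes without LFDHFB replicate 3 (0.00057, log2 fold change 1.47). It was read at 9.66, 12.1 and 1.17 CPM in LFDHFB, at 4.63, 3.0 and 4.16 CPM in LFDLFB and at 2.00 to 7.28 CPM in the HFD-fed libraries. Clca4b was read at 4.0, 72.6 and 6.07 CPM in LFDHFB and at 5.32, 3.06 and 3.13 CPM in LFDLFB, a p of 0.012 that rests on LFDHFB replicate 2.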
